A study of Mus musculus with 14 samples.

Results

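Pulsatile growth hormone dependent liver genes are genes that the male liver holds high because its growth hormone comes in pulses. The members were 7 genes named by symbol: Cyp4a12a, Cyp4a12b, Cyp2d9, Hsd3b5, Keg1, Selenbp2 and Serpina1e, 7 of the 54532 genes in the count table. They were chosen with earlier results of these data known, so counts of members are descriptions. Their levels were compared in 14 libraries of liver RNA from C57BL/6J mice, an inbred laboratory strain, at 52 weeks of age. The groups were wild-type females (n = 2), non-tumour liver of Abcb11-/- females (n = 3), tumour tissue of Abcb11-/- females (n = 3), wild-type males (n = 3) and livers of Abcb11-/- males (n = 3). Abcb11 encodes the bile salt export pump of the hepatocyte, and "knockout" below stands for the Abcb11-/- genotype. The wild-type females are numbered 2 and 3, and a number 1 was not analysed here. Nothing in the labels says that a tumour and a non-tumour library of the same number come from 1 mouse, so p-values measure the spread between these libraries, which may in part be technical.

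Growth hormone reaches the hepatocyte through its receptor, JAK2 and the transcription factor STAT5B. In male mice it is secreted in separate pulses, and STAT5B is switched on and off with them. In females the hormone is present more continuously, and many of the male genes stay low while a female set is expressed. The male set includes steroid- and fatty acid-metabolising enzymes (the Cyp4a12 pair, Cyp2d9 and Hsd3b5), a secreted serpin (Serpina1e) and the less studied Keg1 and Selenbp2. Growth hormone itself was not measured, so the label rests on what is known of these genes.

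Library totals ran from 14745140 to 19480538 counts, and 17874 genes were tested in 1 edgeR fit. Levels are in CPM, counts scaled to a common library size after TMM adjustment, and every adjusted p below is from edgeR's quasi-likelihood F test with Benjamini-Hochberg adjustment over all tested genes. The Abcb11 transcript was reduced but present in all knockout libraries (log2 fold change −3.93 ± 0.38 SE in non-tumour females and −1.94 ± 0.34 in males). Of 12 hepatocyte markers 11 were measured, and their summed level ran from 28107 CPM (a wild-type male) to 98190 CPM (a non-tumour female). Wild-type male 3 stood apart in a lymphocyte marker list, whose sum was 8.95 to 411 CPM in wild-type males with male 3 the highest, and 26.6 to 72.5 CPM in knockout males. A clock score (mean log2 CPM of 8 genes that peak towards evening, less the mean of 4 that peak towards morning) was −2.97 to −2.05 in wild-type males and 2.18 to 3.11 in knockout males, so those 2 groups did not overlap. It ran from −1.12 to 4.17 in the female libraries. In bulk tissue such as this, fewer cells of a type and less RNA per cell cannot be told apart. Hours of tissue collection are not given in the sources used here.

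All 7 members passed the low-count filter, 3 of them only through the groups where they were high: Cyp4a12a and Cyp4a12b mainly through the males, and Hsd3b5 through the wild-type males alone. In wild-type livers, 5 of the 7 were higher in every male than in every female, while Keg1 was lower in every male and Selenbp2 overlapped. In knockout males the members moved in different directions. Keg1 and Selenbp2 rose 15.6-fold and 6.74-fold over wild-type males, Serpina1e fell, and Cyp2d9 overlapped with wild type. In females, non-tumour knockout liver showed no called change in any member. Keg1 was lower there in every library than in both wild-type females, and several members were high in single female libraries.

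**Figure D1:**
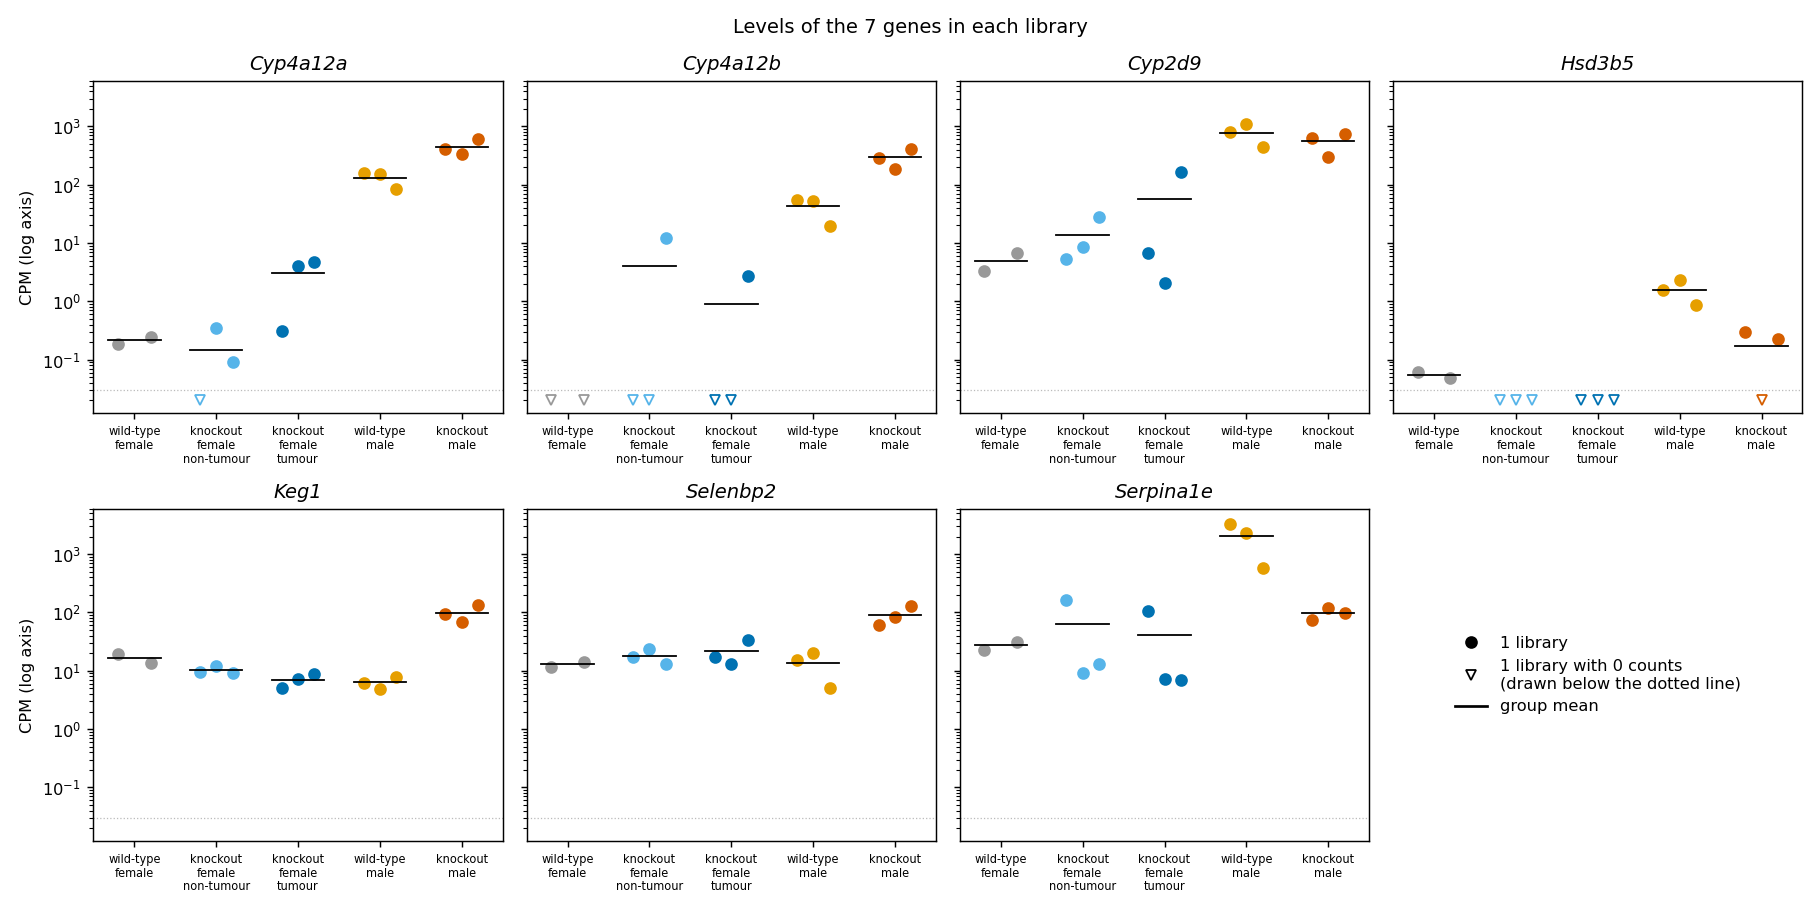
Level of each of the 7 genes in every library, in CPM on a log axis, by group. Points are libraries, lines are group means, and open triangles are libraries with 0 counts. Keg1 is at 68.5 CPM or more in the knockout males and at 19.1 or less elsewhere, and Serpina1e is at 584 CPM or more in the wild-type males and at 165 or less elsewhere.

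By count, 3 of 7 members were called higher and 1 lower in wild-type males against wild-type females, where 7.03% of all tested genes were called higher and 16.1% lower. Without overlap between the libraries, 5 members lay above and 1 below, against 17.5% and 31.5% of all genes. Of those 5, Cyp4a12a, Cyp4a12b and Hsd3b5 had no wild-type female above the filter's level, so the filter itself favoured their separation and nothing is read from the count. Of the other 4 members, which passed in every group, Cyp2d9 and Serpina1e lay above, Keg1 below and Selenbp2 overlapped. The members' median log2 fold change was 6.24, beside −0.12 for all genes. This median includes Cyp4a12a, Cyp4a12b and Hsd3b5, so it is a description only. In knockout against wild-type males 2 members were called higher and 1 lower, against a background of 14.3% and 6.32%. There 4 lay above without overlap and 2 below, against 23.1% and 12.2% of all genes, and the median was 1.77 beside 0.11. Hsd3b5, 1 of the 2 below, passed the filter through the wild-type males alone. The filter favoured its place there, and nothing is read from this count or this median either. These comparisons share the wild-type males. The wild-type sexes also differed in the clock score (0.305 and 1.05 in the females, no overlap) and in the adipocyte marker sum (9.40 and 9.73 CPM in females, 117.6 to 178 CPM in males), and the part of either in the members' differences was not tested.

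The Cyp4a12 pair encodes fatty acid omega-hydroxylases that turn arachidonic acid into 20-HETE. Cyp4a12a (ENSMUSG00000066071) lies on chromosome 4 at 115299046 to 115332815 and Cyp4a12b (ENSMUSG00000078597) at 115411624 to 115439034, both on the plus strand of GRCm38. Their coding sequences are 98.5% identical, with 23 differing bases of 1524, and 25.6% of the 150-base windows of the Cyp4a12a transcript occur unchanged in the other gene. The split of reads between the 2 is therefore uncertain. Bases 624 to 683 of both coding sequences are printed to show how few letters separate the copies, with the 4 differing bases in capitals (GENCODE transcripts).
Cyp4a12a: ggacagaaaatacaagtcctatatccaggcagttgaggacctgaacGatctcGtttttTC
Cyp4a12b: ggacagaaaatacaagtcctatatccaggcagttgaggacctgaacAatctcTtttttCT

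Cyp4a12a stood at 0.187 and 0.241 CPM in the wild-type females and at 0, 0.356 and 0.0904 CPM in non-tumour knockout females 1, 2 and 3. Tumours 1, 2 and 3 had 0.309, 3.97 and 4.77 CPM. Wild-type males had 159.6, 149.8 and 85.2 CPM, and knockout males 411, 332 and 598 CPM. Every male library exceeded every female library, and every knockout male exceeded every wild-type male. The order of the group means was non-tumour females (0.149 ± 0.185 CPM, SD, n = 3), wild-type females (0.214 ± 0.0381, n = 2), tumours (3.01 ± 2.38, n = 3), males of wild type (131.5 ± 40.4, n = 3) and then knockout males (447 ± 136, n = 3). The first 2 did not differ beyond their spread. The log2 difference between wild-type males and females was 9.20 ± 1.14 (edgeR adjusted p = 0.000222), the one member call in that comparison that no alternative setting removed. Between knockout and wild-type males it was 1.77 ± 0.63 (edgeR adjusted p = 0.0633), so the separation of the libraries did not pass the threshold.

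Cyp4a12b had no counts in either wild-type female. It had 0, 0 and 272 counts in non-tumour females 1, 2 and 3 (12.3 CPM in the third) and 0, 0 and 54 counts in the tumours (2.74 CPM in the third). In wild-type males it stood at 54.5, 53.2 and 19.4 CPM, and in knockout males at 286, 185 and 413 CPM. As for its twin, the males lay above all females and the knockout males above the wild-type males. Over a floor of 3 counts per library, the lowest wild-type male was at least 104-fold higher than wild-type females, with an edgeR adjusted p of 0.0584. Its mean went from 42.4 ± 19.9 CPM in the wild-type males to 295 ± 114 CPM in the knockout males (n = 3 each, log2 fold change 2.80 ± 1.65, edgeR adjusted p = 0.266). Both genes of the pair passed in this comparison with limma-voom (adjusted p = 0.0112 for Cyp4a12a and 0.00580 for Cyp4a12b), with the male groups fitted alone (edgeR adjusted p = 0.0125 and 0.00591) and with no low-count filter, and neither passed with DESeq2 (adjusted p = 0.142 and 0.524).

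The share of Cyp4a12b in the pair's counts was 18.5% to 26.2% in wild-type males and 35.8% to 41.0% in knockout males. Non-tumour female 3 went the other way round from every other library: 99.3% of its Cyp4a12 counts were on Cyp4a12b, and Cyp4a12a had 2 counts there. In tumour 3 the share was 36.5%. Summed as 1 row, the pair gave a log2 difference of 9.60 between wild-type males and females (edgeR adjusted p = 0.0152) and of 2.09 for knockout males over wild type (edgeR adjusted p = 0.280).

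Cyp2d9 (ENSMUSG00000068086), a cytochrome P450 that hydroxylates testosterone at the 16-alpha position, lies on chromosome 15 at 82433437 to 82456845 (plus strand). The wild-type females had 3.37 and 6.65 CPM of it, and non-tumour females 1, 2 and 3 had 5.35, 8.54 and 27.9 CPM. Tumours 1, 2 and 3 had 6.74, 2.06 and 163 CPM. Wild-type males had 814, 1097 and 436 CPM, and knockout males 641, 299 and 739 CPM. Here the knockout males fell among the wild-type males, and tumour 3 was the only female library above 28 CPM. The group means rose from wild-type females (5.01 ± 2.32 CPM, n = 2) through non-tumour females (13.9 ± 12.2, n = 3) and tumours (57.2 ± 91.5, n = 3) to knockout males (559.6 ± 231, n = 3) and wild-type males (783 ± 332, n = 3). Only the step from the female to the male groups exceeded the spread of neighbours in that order.

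The log2 difference of Cyp2d9 was 7.28 ± 1.92 between wild-type males and females (edgeR adjusted p = 0.0207) and −0.48 ± 1.20 for knockout males over wild type (edgeR adjusted p = 0.813). The first call was lost without either wild-type female (edgeR adjusted p = 0.146 without female 2 and 0.141 without female 3). Tumour 3 carried the tumour mean, since the log2 difference from non-tumour liver was 2.04 ± 1.26 with it and −1.67 without it. Against the rest of the Cyp2d family, Cyp2d9 made up 26.5% to 34.3% of the counts in wild-type males, 16.7% to 26.2% in knockout males and at most 8.69% in a female library. Cyp2d10, an abundant relative, was higher in wild-type males than in females by only 1.02 ± 0.35 (edgeR adjusted p = 0.0457). With the whole family summed, the log2 difference between the wild-type sexes was 0.71 (edgeR adjusted p = 0.188). Cyp2d9 overlaps 3 annotated pseudogenes (Gm46501, Gm49421 and Gm49419) and the microRNA gene Gm27622, so its count is uncertain in those stretches.

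Hsd3b5 (ENSMUSG00000038092), which encodes an NADPH-dependent 3-ketosteroid reductase of the 3-beta-hydroxysteroid dehydrogenase family, is one of the most strongly male genes of mouse liver in textbook accounts. Here it was near the limit of detection. It had 1 count in each wild-type female, none in any of the 6 knockout female libraries, 24, 33 and 17 counts in wild-type males 1, 2 and 3, and 4, 0 and 4 counts in knockout males. These correspond to 1.55, 2.36 and 0.858 CPM in wild-type males (mean 1.59 ± 0.753, SD, n = 3) and 0.298, 0 and 0.226 CPM in knockout males (0.175 ± 0.155, n = 3). Every wild-type male exceeded every other library. The ratio of wild-type male to wild-type female counts was 27.6, with a 95% counting interval of 7.39 to 232 that covers counting error only.

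Neither difference of Hsd3b5 passed the threshold: the log2 difference between knockout and wild-type males was −3.13 ± 1.27 (edgeR adjusted p = 0.105), and wild-type males against females gave an edgeR adjusted p of 0.0633. The gene (chromosome 3, 98618634 to 98630252, minus strand) lies within the opposite-strand gene Zfp697, and whether counting used strand is not given in the sources used here. Its relatives moved the other way. Hsd3b3, a dehydrogenase of the same cluster, rose from 3.64 ± 1.65 CPM in wild-type males to 133 ± 42.2 CPM in knockout males (log2 5.20 ± 0.62, edgeR adjusted p = 0.000185), and Hsd3b2 from 4.85 ± 4.92 to 92.7 ± 18.6 CPM (log2 4.24 ± 1.07, edgeR adjusted p = 0.0182; n = 3 each). Hsd3b5 thus held 45.3%, 19.3% and 5.88% of the family's counts in wild-type males 1, 2 and 3 and at most 0.127% in any other library.

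Serpina1e (ENSMUSG00000072849) belongs to the alpha-1-antitrypsin cluster of mouse chromosome 12 (103946931 to 103958975, minus strand), whose products are secreted inhibitors of serine proteases. It differs from its nearest measured relative, Serpina1c, in 44 of 1239 coding bases (96.4% identity). Of the 150-base windows of the Serpina1e transcript, 7.57% occur unchanged in other genes, most of all in Serpina1b, so the placing of such reads is uncertain. Bases 1101 to 1160 of Serpina1e and Serpina1c are printed with the 12 differing bases there in capitals.
Serpina1e: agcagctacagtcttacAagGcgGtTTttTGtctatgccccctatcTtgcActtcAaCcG
Serpina1c: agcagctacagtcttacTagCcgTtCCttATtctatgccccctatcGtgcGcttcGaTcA

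Serpina1e was the most abundant of the 7 genes per kilobase in wild-type males, at 1267 CPM per kb, against 294 for Cyp2d9, 54.3 for Cyp4a12a, 17.7 for Cyp4a12b, 5.94 for Selenbp2, 1.11 for Keg1 and 1.03 for Hsd3b5. In CPM it stood at 3296, 2267 and 584 in wild-type males 1, 2 and 3 and at 73.3, 118 and 96.5 in the knockout males. Wild-type females had 23.1 and 31.2 CPM, non-tumour females 165, 9.14 and 13.1 CPM, and tumours 107, 7.22 and 6.90 CPM for numbers 1, 2 and 3. All wild-type males lay above every other library. The knockout males were at the level of the 2 female libraries numbered 1, and above the other 6 female libraries.

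Serpina1e fell from 2049 ± 1369 CPM in wild-type males to 96.0 ± 22.4 CPM in knockout males (n = 3 each), a log2 fold change of −4.42 ± 1.39 (edgeR adjusted p = 0.0452), or 21.3-fold. This call held by a narrow margin. It was lost when any of wild-type males 1 and 2 or knockout males 1, 2 and 3 was left out (edgeR adjusted p from 0.0688 to 0.132). With the clock score as a covariate the log2 change of Serpina1e was −0.11 (edgeR adjusted p = 0.975). That score did not overlap between these male groups, so the fit cannot part it from genotype. Without male 3, whose hepatocyte marker sum was the lowest, the change was −4.98 (edgeR adjusted p = 0.0390). Wild-type males exceeded wild-type females by a log2 difference of 6.24 ± 1.83 (edgeR adjusted p = 0.0314), a call lost without either female (edgeR adjusted p = 0.183 and 0.189) and without male 1 (edgeR adjusted p = 0.0522). The group means ran from wild-type females (27.1 ± 5.73 CPM, n = 2) through tumours (40.3 ± 57.6), non-tumour females (62.4 ± 88.9) and knockout males (96.0 ± 22.4) to wild-type males, and only the last step exceeded the spread.

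The change was not common to the cluster. Serpina1a, Serpina1b, Serpina1c and Serpina1d were not called in knockout against wild-type males, with log2 changes of 0.35 ± 0.42, 0.42 ± 0.39, −0.62 ± 0.36 and −0.07 ± 0.49. Summed as a whole, the cluster changed by −0.18 (edgeR adjusted p = 0.795). A test of the difference between Serpina1e and the other 4 was not run. Serpina1e made up 26.1%, 23.6% and 14.3% of the cluster's counts in wild-type males 1, 2 and 3, and 0.986%, 2.03% and 0.964% in knockout males. In the females the share was 0.120% to 2.54%, highest in the non-tumour and tumour libraries numbered 1.

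**Figure D2:**
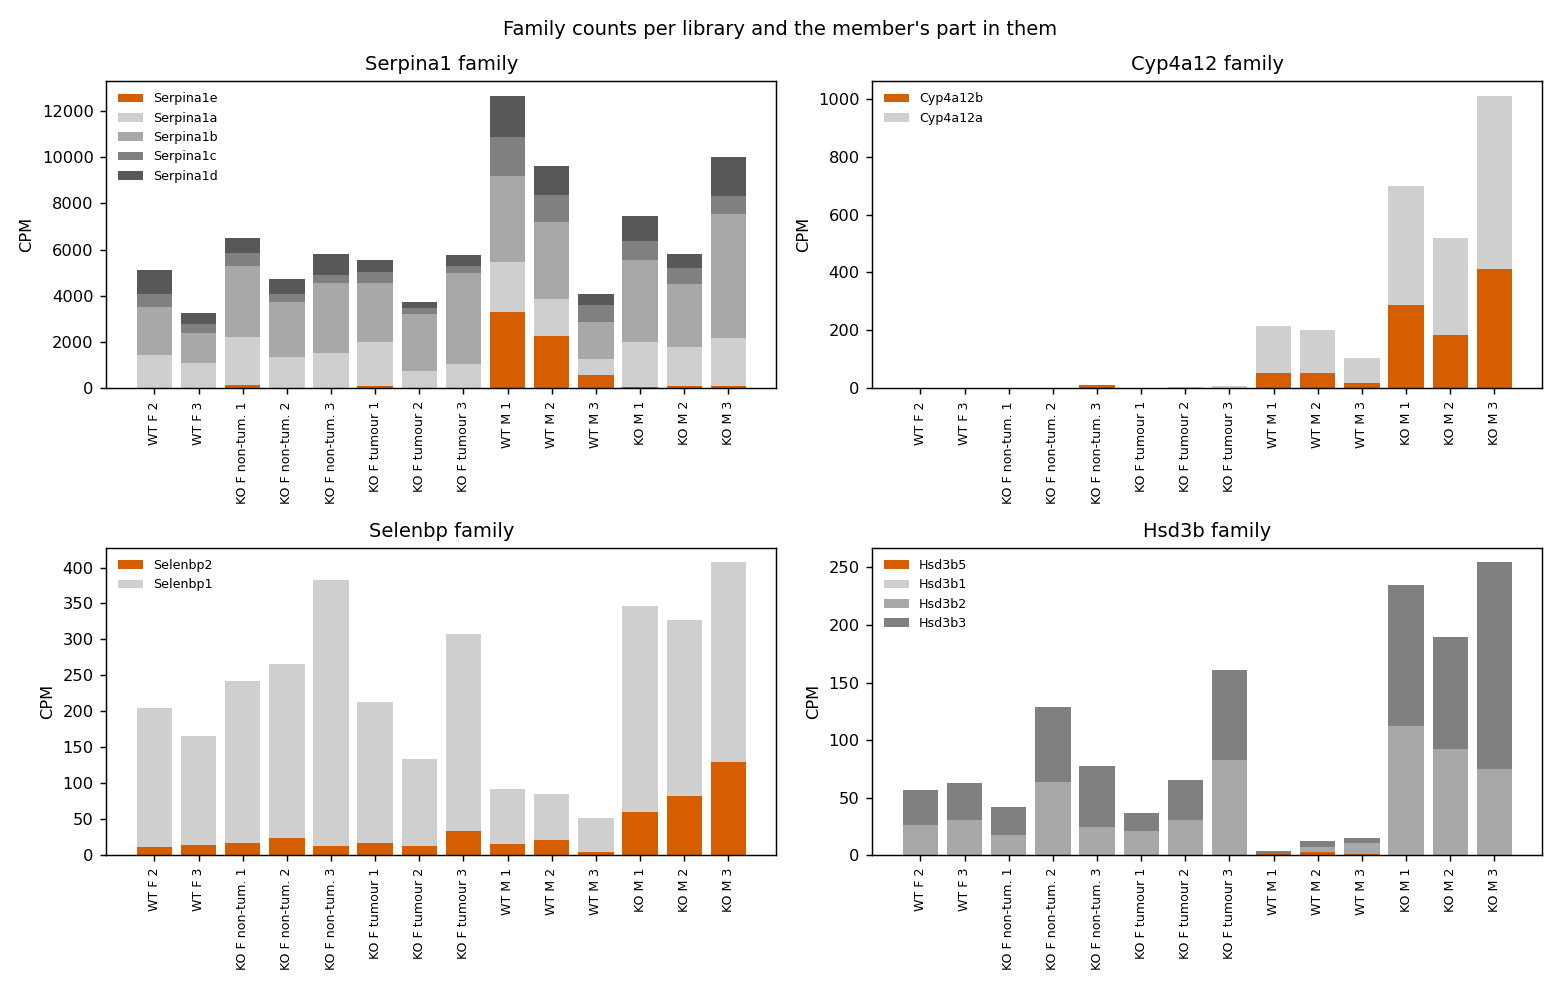
Summed CPM of 4 gene families in each library (WT wild type, KO knockout, F female, M male), stacked by gene with the named member in orange. Serpina1e fills 14.3% to 26.1% of the Serpina1 bar only in wild-type males, and the Hsd3b bar of knockout males is made of Hsd3b2 and Hsd3b3 with at most 0.127% Hsd3b5.

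Keg1 (ENSMUSG00000024694; kidney expressed gene 1; chromosome 19, 12695786 to 12719902, plus strand) encodes a glycine N-acyltransferase-like protein. Of the 5 members with a RefSeq promoter entry (GRCm38.p6), it was the one whose last 250 bases before the RefSeq start hold the letters TTCNNNGAA, the spacing that STAT5 proteins are known to bind. This palindrome, read on both strands, occurs in 2306 of 32851 promoters of that length (7.02%), and 2 or more in 104 (0.317%). The window chr19:12695540-12695789 on the plus strand is printed with its 2 matches in capitals, 173 and 107 bases before the start. A match is a description of letters and not of a bound site.
Keg1: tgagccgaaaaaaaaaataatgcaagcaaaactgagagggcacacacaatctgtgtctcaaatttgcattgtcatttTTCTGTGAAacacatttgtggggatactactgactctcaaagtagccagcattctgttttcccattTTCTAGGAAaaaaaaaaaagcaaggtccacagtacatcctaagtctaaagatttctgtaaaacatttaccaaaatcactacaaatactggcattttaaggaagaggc

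Keg1 had 19.1 and 13.4 CPM in the 2 wild-type females, 9.60, 12.3 and 9.31 CPM in non-tumour females, and 5.07, 7.36 and 8.77 CPM in tumours 1, 2 and 3. Wild-type males had 6.08, 4.94 and 7.92 CPM, and knockout males 92.5, 68.5 and 135 CPM. The lowest knockout male was above the highest of all 11 other libraries. Among those others the order of the group means was wild-type males (6.31 ± 1.51, n = 3), tumours (7.07 ± 1.87, n = 3), non-tumour females (10.4 ± 1.64, n = 3) and wild-type females (16.3 ± 4.07, n = 2), and the first 2 did not differ beyond their spread.

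Against wild-type males, Keg1 rose by a log2 fold change of 3.96 ± 0.31 in knockout males, to 98.8 ± 33.9 CPM (edgeR adjusted p = 4.87e-06). It held this call when any library was left out and with the clock score as a covariate (log2 3.48, edgeR adjusted p = 0.00135), though in these males that score cannot be parted from genotype. Without male 3, the library high in lymphocyte markers, it was 4.04 (edgeR adjusted p = 2.44e-05). In wild-type livers it was lower in males than in females by −1.36 ± 0.31 (edgeR adjusted p = 0.00700), against the direction its label gives, a call lost without female 2 (edgeR adjusted p = 0.0752), with the clock score as a covariate (0.0781) and when these 2 groups were fitted alone (0.0530). In females the knockout change had the opposite sign, −0.65 ± 0.31 in non-tumour liver (edgeR adjusted p = 0.246) and −1.20 ± 0.31 in tumours (edgeR adjusted p = 0.0267), the latter lost without either wild-type female or without tumour 1 or 2 (edgeR adjusted p from 0.0743 to 0.200). The difference between the female and male knockout effects was −4.61 ± 0.43 (edgeR adjusted p = 0.000122).

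The antisense gene Gm15962 overlaps the 3′ part of Keg1, and without a stated strand setting their reads cannot be told apart. It had 0 counts in each wild-type male, 20, 13 and 38 in knockout males 1, 2 and 3, and 8 and 12 in wild-type females. The non-tumour females together had 1 count, as did the tumours. Keg1 had 4576 counts in the knockout males together, and how many reads the genes shared was not tested. Keg1's relatives did not follow it. Glyat, the liver glycine N-acyltransferase, went from 319 ± 81.8 CPM in wild-type males to 220.1 ± 47.6 CPM in the knockouts (log2 −0.53 ± 0.28, edgeR adjusted p = 0.192), and Gm4952 from 78.0 ± 26.7 to 29.1 ± 8.02 CPM (log2 −1.42 ± 0.49, edgeR adjusted p = 0.0561). Summed over the 3 genes the change was −0.21 (edgeR adjusted p = 0.638), since Glyat holds most of the counts. Keg1's share of the 3 genes' counts went from 1.10% to 2.80% in wild-type males to 24.3% to 30.6% in knockout males.

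Selenbp2 (ENSMUSG00000068877), a selenium-binding protein known as the acetaminophen-binding protein of mouse liver, lies on chromosome 3 at 94693556 to 94704413 (plus strand). Its near twin Selenbp1 differs in 18 of 1416 coding bases (98.7% identity), and 6.94% of the 150-base windows of Selenbp2 occur unchanged in another gene. Bases 390 to 449 of the coding sequences show this closeness, with the 4 differing bases in capitals.
Selenbp2: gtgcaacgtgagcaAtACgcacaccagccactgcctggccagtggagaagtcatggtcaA
Selenbp1: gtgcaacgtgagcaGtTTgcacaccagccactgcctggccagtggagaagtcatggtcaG

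The 2 genes moved together between the male groups, so their promoters are printed as well (chr3:94693323-94693572 and chr3:94932833-94933082, plus strand, RefSeq, GRCm38.p6). They are 85.1% identical over 262 aligned columns. Capitals mark bases that differ or have no partner.
Selenbp2: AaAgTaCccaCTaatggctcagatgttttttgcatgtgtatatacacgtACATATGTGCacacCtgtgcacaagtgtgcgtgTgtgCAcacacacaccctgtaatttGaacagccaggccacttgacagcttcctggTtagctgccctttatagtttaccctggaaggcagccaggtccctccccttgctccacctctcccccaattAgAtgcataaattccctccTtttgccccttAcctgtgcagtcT
Selenbp1: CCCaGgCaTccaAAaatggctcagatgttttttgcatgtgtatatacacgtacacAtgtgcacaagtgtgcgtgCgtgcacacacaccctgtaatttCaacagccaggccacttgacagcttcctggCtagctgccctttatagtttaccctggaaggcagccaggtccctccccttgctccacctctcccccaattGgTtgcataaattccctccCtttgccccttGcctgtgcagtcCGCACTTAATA

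Selenbp2 had 11.5 and 14.4 CPM in the 2 wild-type females, 17.2, 24.0 and 12.8 CPM in non-tumour females, and 17.4, 13.0 and 34.0 CPM in tumours 1, 2 and 3. Wild-type males had 15.0, 20.5 and 5.0 CPM, and knockout males 60.2, 81.9 and 129 CPM. As with Keg1, the knockout males lay above all other libraries, and the wild-type males lay among the females. Group means were 12.9 ± 2.04 CPM in wild-type females (n = 2), 13.5 ± 7.85 in wild-type males, 18.0 ± 5.64 in non-tumour females, 21.5 ± 11.0 in tumours and 90.5 ± 35.4 in knockout males (n = 3 each). None of the first 4 differed from its neighbour beyond the spread.

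The rise in knockout males was 2.75 ± 0.50 on the log2 scale (edgeR adjusted p = 0.00217). It kept its sign under all 16 alternatives and was lost in 1, the clock score as a covariate (log2 2.51, edgeR adjusted p = 0.136). In these males that score cannot be parted from genotype. Selenbp1 rose with it, from 62.7 ± 15.2 to 270 ± 21.5 CPM (2.11 ± 0.32, edgeR adjusted p = 0.000580). The twins parted in wild-type livers, where Selenbp1 was lower in males than in females (−1.46 ± 0.34, edgeR adjusted p = 0.00771) and Selenbp2 gave 0.06 ± 0.53 (edgeR adjusted p = 0.954). Selenbp2 held 9.69% to 24.0% of the pair's counts in wild-type males, 17.3% to 31.8% in knockout males and 3.36% to 11.0% in female libraries.

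**Figure D3:**
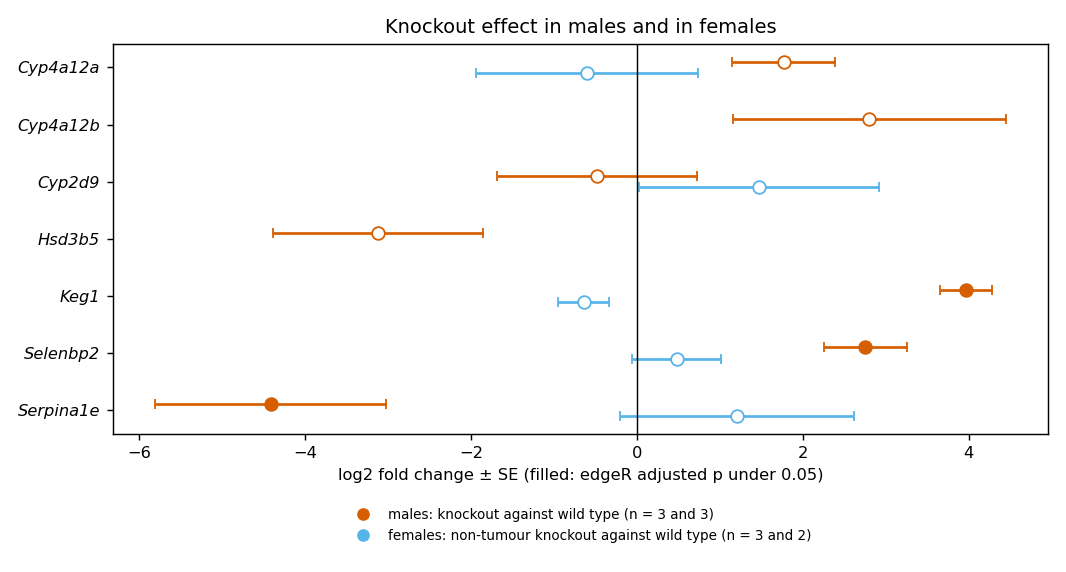
Log2 fold change of each gene with its SE in knockout against wild-type males and in non-tumour knockout against wild-type females. Filled points have an edgeR adjusted p under 0.05, and no female value is drawn for Cyp4a12b and Hsd3b5, which had too few counts. Keg1 and Selenbp2 lie at 3.96 and 2.75 in males and at −0.65 and 0.48 in females, and Serpina1e lies at −4.42 in males.

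Genes of growth hormone signalling were compared between the same male groups. Of 14 such genes 5 were called higher in knockout males and none lower, where 14.3% of all genes were called higher and 6.32% lower. Cish, a STAT5 target that dampens the receptor's signal, rose from 8.39 ± 0.955 to 33.2 ± 7.98 CPM (log2 1.98 ± 0.27, edgeR adjusted p = 0.000271), and Socs2, another such feedback gene, from 15.2 ± 3.09 to 38.1 ± 17.5 CPM (1.33 ± 0.31, edgeR adjusted p = 0.00842). The receptor gene Ghr rose by 1.19 ± 0.28 (edgeR adjusted p = 0.00920). Cux2, a repressor of male genes that is itself female-specific, rose by 2.68 ± 0.72 (edgeR adjusted p = 0.0190) but only to 1.60 ± 0.825 CPM, against 128 ± 43.9 CPM in wild-type females. The list's median was 0.32 beside 0.11 for all genes. In wild-type liver 6 of the 14 genes were called lower in males than in females and none higher, where 16.1% of all genes were called lower and 7.03% higher.

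These values stand beside the members' changes without a test of their part in them. The clock score separated the same 2 male groups: 6 of 8 evening genes were called higher in knockout males and none lower, and the score did not overlap. With it as a covariate, 1 member, Keg1, was called between knockout and wild-type males in place of 3, while the calls over all genes fell from 3688 to 342 of 17874, and the estimates of Cyp4a12a and Cyp4a12b turned negative (−1.38 and −7.33, edgeR adjusted p = 0.663 and 0.319). Since the score did not overlap between these groups, that fit cannot part it from genotype. Within groups the score varied most in the knockout females, so its slope rests mainly on those libraries. Of 8 endothelial markers 4 were called lower in knockout males, where the summed level was 92.8 to 119.9 CPM against 148.5 to 239 CPM in wild-type males. The adipocyte sum was 58.5 to 72.3 CPM in knockout and 117.6 to 178 CPM in wild-type males, with 1 of 3 measured markers called lower.

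**Figure D4:**
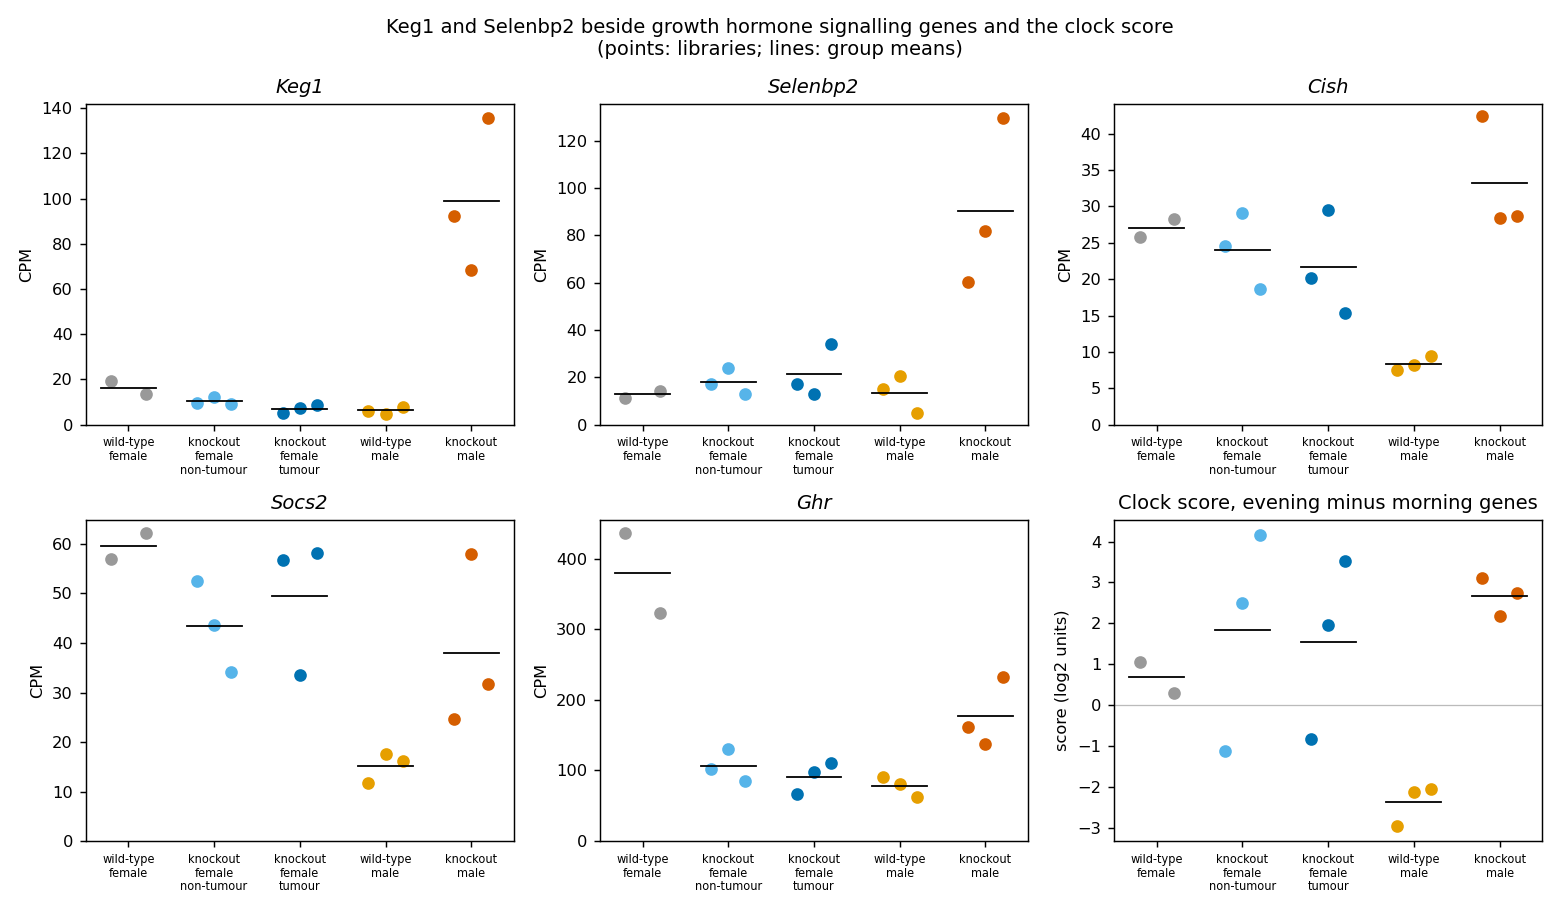
Keg1 and Selenbp2 beside Cish, Socs2 and Ghr (CPM) and the clock score (log2 units) in every library, by group, with group means as lines. In Cish, Socs2, Ghr and the clock score, as in Keg1 and Selenbp2, every knockout male lies above every wild-type male.

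Other male and female genes were counted in the same way. Of 15 tested male-biased genes outside the members, 8 were called higher in wild-type males than in females and none lower. Over all genes 7.03% were called higher and 16.1% lower. In knockout against wild-type males 2 rose and 2 fell, where 14.3% of all genes were called higher and 6.32% lower. The fallers were Slco1a1, an organic anion uptake carrier (84.6 ± 29.9 to 14.3 ± 5.55 CPM, log2 −2.57 ± 0.43, edgeR adjusted p = 0.00124), and Elovl3, a fatty acid elongase (400 ± 121 to 52.6 ± 25.0 CPM, −2.92 ± 0.57, edgeR adjusted p = 0.00339). Those that rose were Nox4 (2.54 ± 0.52) and Ttc39c (1.34 ± 0.34). Called changes went both ways, as they did over all genes, so this is no trait of the list or of the 7 members. Of 22 female-biased genes 18 were called lower in wild-type males than in females. In knockout against wild-type males 4 rose and 1 fell, and their summed level of 239 to 311 CPM in knockout males stayed far under the 2686 to 4365 CPM of wild-type females.

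In non-tumour knockout against wild-type females, none of the 7 members was called, while 1.9% of all genes were called higher and 2.26% lower. Among the 5 members with a usable fold, none reached an unadjusted p under 0.05 in edgeR, limma-voom called none of the 7, and DESeq2 called 1, Cyp4a12b, whose counts came from non-tumour female 3 alone. The estimates were −0.60 ± 1.34 for Cyp4a12a, 1.47 ± 1.45 for Cyp2d9, −0.65 ± 0.31 for Keg1, 0.48 ± 0.53 for Selenbp2 and 1.20 ± 1.41 for Serpina1e (edgeR adjusted p from 0.246 to 0.837). The last rested on non-tumour female 1 and became −1.24 without it. In the same comparison Ghr, Stat5a and Bcl6 were called lower (3 of 14 signalling genes), as were 4 of 22 female-biased genes. Other-cell markers moved there as well. The median log2 fold change was 1.85 for 8 cholangiocyte markers (none called) and 1.58 for 8 macrophage markers (2 called higher), beside −0.00016 for all genes. Their part in these values was not tested.

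Between tumour and non-tumour liver of knockout females no member was called, nor was any gene (0% of all tested). Of the 5 members with a usable fold, 1 had an unadjusted p under 0.05 in edgeR: Cyp4a12a, at 4.38 ± 0.92 on the log2 scale (edgeR adjusted p = 0.665). DESeq2 called it (adjusted p = 0.00872) and limma-voom did not call any member. The other estimates were −0.55 ± 0.28 for Keg1, which was lower in every tumour than in every non-tumour library, 0.25 ± 0.47 for Selenbp2 and −0.63 ± 1.22 for Serpina1e (edgeR adjusted p from 0.791 to 0.982). Cyp2d9 gave 2.04 ± 1.26 (edgeR adjusted p = 0.849). With libraries of equal number paired in a fit of these 2 tissues alone, Serpina1e, lower in the tumour of each of the 3 numbers, gave −0.63 (unadjusted p = 0.0102, edgeR adjusted p = 0.273). Of Cyp4a12a, tumour 1 had 5 counts, and tumours 2 and 3 had 83 and 94. Without tumour 1 it passed the threshold (log2 4.89, edgeR adjusted p = 0.00654). Read as pairs by number, non-tumour and tumour libraries gave no called member, and 1, Cyp4a12a, when number 1 was left out (edgeR adjusted p = 0.0152).

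Tumour against wild-type female liver gave 1 member called higher and 1 lower, where 3.94% and 5.67% of all genes were. Cyp4a12a was higher by 3.77 ± 1.02 (edgeR adjusted p = 0.0372) and Keg1 lower. The Cyp4a12a call was lost without either wild-type female or without tumour 2 or 3 (edgeR adjusted p from 0.0836 to 0.299), and with the replicate number as a block it was 3.84 (edgeR adjusted p = 0.0507). Cyp2d9 (3.51 ± 1.59), Selenbp2 (0.73 ± 0.54) and Serpina1e (0.57 ± 1.38) were not called (edgeR adjusted p = 0.189, 0.411 and 0.834). Even in the tumours the Cyp4a12a level of 3.01 ± 2.38 CPM was a small part of the 131.5 ± 40.4 CPM of wild-type males. Marker lists of other cells moved in this comparison too: 3 of 8 cholangiocyte markers, 3 of 3 measured adipocyte markers, 2 of 8 macrophage markers and 2 of 8 endothelial markers were called higher in the tumours, and their part in the members' values was not tested. Female-biased genes were called lower in 6 of 22 cases there, and tumour 3, the library with the most Cyp2d9 and Cyp4a12a, had the lowest mean log2 level of that list among the females (1.99, against 3.70 and 4.14 in tumours 2 and 1).

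The knockout effect differed between females and males for 1 member, Keg1, which was lower in the female contrast, where 2.2% of all genes were called higher and 8.68% lower. Selenbp2 narrowly missed the threshold, with −2.28 ± 0.70 (edgeR adjusted p = 0.0540), and passed it without wild-type male 2 (−2.55, edgeR adjusted p = 0.0410). Serpina1e gave 5.62 ± 2.03 (edgeR adjusted p = 0.0988), Cyp4a12a −2.37 ± 1.53 (edgeR adjusted p = 0.335) and Cyp2d9 1.95 ± 1.87 (edgeR adjusted p = 0.535). Of the 14 signalling genes 6 were called lower in this contrast.

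Knockout males against non-tumour knockout females gave 2 members called higher and none lower, while only 0.207% of all genes were called higher and 0.185% lower. Cyp4a12a was higher by 11.57 ± 1.02 (edgeR adjusted p = 8.82e-05) and Keg1 by 3.25 ± 0.30 (edgeR adjusted p = 3.80e-05). In all, 5 members lay above without overlap and none below, against 9.26% and 10.5% of all genes, and over the 6 members with a usable fold the median was 4.29 beside −0.01 for all genes. Cyp2d9 (5.33 ± 1.45, edgeR adjusted p = 0.194), Cyp4a12b (6.14 ± 1.94, edgeR adjusted p = 0.298) and Selenbp2 (2.33 ± 0.49, edgeR adjusted p = 0.0644) separated the libraries without passing. Serpina1e, at 0.62 ± 1.22 (edgeR adjusted p = 0.965), overlapped between the sexes in knockout liver. Cyp4a12a was called higher in males in both genotypes, and Keg1 was called lower in wild-type males and higher in knockout males. As above, the counts and the median are a description, since Cyp4a12a and Cyp4a12b passed the filter mainly through the males. The cholangiocyte list, at 64.9 to 351 CPM in these males and 428 to 565 CPM in these females, moved with this comparison, and its part was not tested.

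Across all 14 libraries the members differed in how far they followed the set's median profile (log2 CPM centred on each gene's mean in wild-type males). The mean absolute difference was 1.55 for Cyp2d9, 1.65 for Hsd3b5, 1.75 for Cyp4a12a, 1.81 for Cyp4a12b and 2.20 for Serpina1e, but 3.36 for Selenbp2 and 3.75 for Keg1. Of 9277 other protein-coding genes with a mean of at least 5 CPM in wild-type males, the 6 most like that profile were Nat8f5 (1.14), the Y-linked Uty (1.20), the urinary protein gene Mup20 (1.30), the Y-linked Kdm5d (1.33), the complement gene C6 (1.34) and the urinary protein gene Mup21 (1.36). These values are descriptions over libraries that share groups and depth.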

How the data were processed

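Total RNA in 14 mouse liver libraries had been sequenced as paired reads. Fragments were aligned to GRCm38 with HISAT2 2.0.5 and counted per gene with featureCounts 1.5.0-p3, per the submitters' processing notes. The authors deposited whole-number counts, unscaled, which were used for every test, and FPKM values made from the same counts and gene lengths, which served only to check the columns. No sample column was unmapped (0). Whether counting used strand is not given in the sources used here.

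Counts were fitted once over 5 groups in edgeR 4.0.16 (R 4.3.3; TMM, filterByExpr, robust quasi-likelihood F test, Benjamini-Hochberg over 17874 genes, threshold 0.05). SE is the log2 fold change divided by the root of F. Floors are 3 counts per library. Settings tried otherwise were other scalings and filters, DESeq2 1.42.0, limma-voom 3.58.1, a replicate block, the clock score as a covariate, family sums, the compared groups alone and each library left out. Every limma-voom result here used sample quality weights, which give outlying libraries less weight. The procedure was also run on simulated counts with planted changes. These held no other differences between groups, the outcome is not given here, and nothing is read from it. Totals of 14745140 to 19480538 counts limit precision for genes with few counts, such as Hsd3b5.

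Named were the 7 members, relatives with over 5% of a family's counts, up to 4 genes of smallest p per list, Abcb11 and the 6 most alike genes. Gm15962, tumour 3 and other features singled out were chosen after their values were seen. Members and lists were chosen with earlier results of these data known. Same-numbered non-tumour and tumour libraries deviated together (r = 0.489, 0.418 and 0.308 over 8445 genes), and those of unlike number gave 0.0578 or less. Libraries of different sex, which cannot share a mouse, ran from −0.565 to 0.439 between non-tumour females and knockout males. Such r is thus no proof of a shared mouse, and the block by number is only an alternative setting. In the fit over all 5 groups it also ties libraries of different sex and genotype.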

Additional observations from a re-analysis of the deposited data

Results flagged for a closer look

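Keg1 was the member whose knockout effect differed between the sexes by a test of the difference itself. The effect in females minus that in males was −4.61 on the log2 scale (edgeR adjusted p = 0.000122), from −0.65 in non-tumour females and 3.96 in males. The levels behind it were 16.3 ± 4.07 CPM in wild-type females (n = 2), 10.4 ± 1.64 in non-tumour knockout females, 6.31 ± 1.51 in wild-type males and 98.8 ± 33.9 in knockout males (n = 3 each). All 3 knockout males lay above all wild-type males, and all 3 non-tumour females below both wild-type females.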

How the results depend on the processing

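Over 40 values of single genes, 661 alternatives were computed: 549 kept the direction and the side of the threshold, 34 lost a call, 48 gained one and 30 changed sign.

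The number of members called with no low-count filter was 3 in non-tumour against wild-type females (0 as reported), 3 in tumour against non-tumour (0), 4 in tumour against wild-type females (2), 5 in knockout against wild-type males (3), 6 in the female-minus-male difference (1) and 5 in knockout males against non-tumour females (2). With DESeq2 these numbers were 1, 1, 4, 4, 4 and 4. Calls over all genes moved with these settings too: in the same 6 comparisons they were 743, 0, 1718, 3688, 1945 and 70 of 17874 as reported, 1739, 338, 2516, 4065, 2815 and 700 of 28842 with no filter, and 1885, 29, 3033, 4592, 3018 and 457 of 28664 with DESeq2. With limma-voom the members called were 5 in knockout against wild-type males, 2 in the female-minus-male difference and 4 in knockout males against non-tumour females, and with the compared groups alone 5, 3 and 4, and 1 in tumour against wild-type females. With family sums the members called were 0 in tumour against wild-type females, 2 in the female-minus-male difference and 0 in knockout males against non-tumour females, and with the clock score 1 in tumour against wild-type females and 1 in knockout against wild-type males (342 calls over all genes). Calls over all genes moved here too. Limma-voom gave 3397 of 17874 in non-tumour and 4599 in tumour against wild-type females. In the latter the compared groups alone gave 2489 of 16521, family sums 1714 of 17857 and the clock score 1805 of 17874. Nothing about the members is read from their counts under these settings. Leaving out 1 library gave 0 to 1 in tumour against non-tumour (1 without tumour 1), 0 to 1 in tumour against wild-type females (0 without female 2, female 3 or tumour 2), 1 to 2 in the female-minus-male difference (2 without wild-type male 2) and 1 to 5 in wild-type males against females (1 without female 2, 2 without female 3).

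With the replicate block, which pairs libraries by number, the count in tumour against wild-type females was 1, and Serpina1e changed sign, to −0.70 in non-tumour and −1.36 in tumour against wild-type females. With the block in tumour and non-tumour tissue alone and without number 1 the count was 1, and without number 3 Cyp2d9 became −0.82 and Selenbp2 −0.42. Among single genes the block also took the Cyp4a12a call in tumour against wild-type females to an edgeR adjusted p of 0.0507 and brought Cyp4a12b in wild-type males against females to 0.0464 (5 members called in place of 4). In the fit over all 5 groups it changed no other call.

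Leaving out 1 library changed the sign of 8 values. In non-tumour against wild-type females Cyp4a12a ranged from −2.01 to 0.0053 (without non-tumour female 1) and Serpina1e from −1.24 (without non-tumour female 1) to 1.74. In tumour against non-tumour Cyp2d9 ranged from −1.67 to 3.04 and Selenbp2 from −0.24 to 0.52, both lowest without tumour 3, and Serpina1e from −3.14 (without tumour 1) to 1.86 (without non-tumour female 1). In tumour against wild-type females Cyp2d9 ranged from −0.20 (without tumour 3) to 4.12 and Serpina1e from −1.94 (without tumour 1) to 1.10. In wild-type males against females Selenbp2 ranged from −0.26 (without male 2) to 0.60, and was also below 0 without female 2.

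Sign changes also came under family sums, in which each member was summed with its relatives. In non-tumour against wild-type females they were 4.27 for the Cyp4a12 pair, −0.079 for Cyp2d9 and 0.030 for Keg1. In tumour against non-tumour they were −0.12 for the Cyp4a12 pair, −0.049 for Cyp2d9 and −0.44 for Selenbp2, and in tumour against wild-type females −0.13 for Cyp2d9. In knockout against wild-type males they were 4.49 for Hsd3b5 and −0.21 for Keg1, in the female-minus-male difference 2.18 for the Cyp4a12 pair and 0.24 for Keg1, and in wild-type males against females −2.57 for Hsd3b5, 1.33 for Keg1 and −1.28 for Selenbp2. The clock score turned Cyp4a12a to −1.38 and Cyp4a12b to −7.33 in knockout against wild-type males, and limma-voom turned Serpina1e to −1.22 in tumour against wild-type females. The cause of these was not tested.

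RLE scaling moved the median log2 fold change of all genes from −0.12 to −0.01 in wild-type males against females and from 0.11 to 0 in knockout against wild-type males, and upper-quartile scaling moved it from −0.067 to 0.090 in the female-minus-male difference. No member count changed under either. Depth limits Hsd3b5 and, in females, the Cyp4a12 pair.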

Other observations

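Among the female libraries, tumour 3 had the highest level of the members by mean log2 CPM over the 7 genes (2.72) and by their summed level (219.9 CPM). By the mean, non-tumour female 3 came next (1.95, with Cyp4a12b at 12.3 CPM), and the other 6 lay between 0.911 and 1.22. By the sum, non-tumour female 1 came next (197 CPM, of which Serpina1e was 165). Mup20, a urinary protein gene of the male set, had 620.7 CPM in tumour 3, 30.1 and 4.14 CPM in tumours 2 and 1, and 4.39 to 14.3 CPM in non-tumour and wild-type females. It made up much of the 1250 CPM to which the other male-biased genes summed in tumour 3, against 362 to 831.5 CPM in the other female libraries.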
